A study of Mus musculus with 31 samples.

Results

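The genes described here are 42 cell cycle and mitosis genes, taken by symbol from the 38406 gene symbols that each library's count table lists. They were chosen by name: 17 act at the G1 to S transition and in DNA replication (S phase genes), and 25 act in G2 and mitosis or mark dividing cells (mitotic genes). All 42 were in every table and passed the filter on low counts on both days, and the lowest count of any of them in a library was 5, for Aurkb. They were measured by bulk RNA-seq in CD45.2+ cells, the leukocytes that flow cytometry sorted from mammary tumours of female wildtype C57BL/6 mice. The tumours grew in the mammary fat pad from AT3-OVA, a triple negative mouse mammary carcinoma line that carries ovalbumin, and were irradiated locally. The day 5 groups are 3x4Gy (3 fractions of 4 Gy, a day apart; 6 libraries) with the mock schedule 3x0Gy (4 libraries), and 1x20Gy (1 fraction of 20 Gy; 6 libraries) with the mock 1x0Gy (4 libraries). The day 13 groups are 1x20Gy (7 libraries) and the mock 1x0Gy (4 libraries). Mock mice received the same ketamine and xylazine anaesthesia and no radiation, so every group carries that treatment. The sources used here give neither the age of the mice nor whether a library is 1 mouse or a pool, so p-values measure the spread between these libraries. Day 5 and day 13 libraries carry different experiment codes, so day and experiment cannot be told apart and levels were compared within a day only.

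A cell that divides first copies its DNA in S phase and then separates the copies in mitosis. E2F transcription factors switch on the S phase genes. Cyclin E (Ccne1, Ccne2) drives entry, Cdc6 and Cdt1 load the MCM helicase onto origins, Pcna is the sliding clamp of the DNA polymerases, and Tyms, Tk1, Rrm1 and Rrm2 supply nucleotides. The mitotic genes come on later, through promoter elements called CHR and CCAAT that bind the DREAM and MuvB complexes and NF-Y. They encode the cyclin B and Cdk1 kinase that starts mitosis, spindle and kinetochore proteins, checkpoint kinases, and the ubiquitin ligase parts that end it. In a tumour's immune cells such genes are known mostly from T cells after activation and from dividing myeloid precursors, while mature macrophages divide less.

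The promoters of 5 genes that the results turn on are shown because the 2 classes differ in how often they carry CHR, CCAAT and E2F elements there. They are the S phase genes Mcm5 (chr8:75109259-75109538, plus strand) and Cdc6 (chr11:98907901-98908180, plus strand), and the mitotic genes Ube2c (chr2:164769679-164769958, plus strand), Ccnb2 (chr9:70421525-70421804, minus strand) and Cdk1 (chr10:69352883-69353162, minus strand). Each stretch of 280 bases runs from 250 bases before to 30 bases after the RefSeq start on GRCm38.p6, 5′ to 3′ on the gene's strand. Capitals mark matches on either strand to the CHR core TTTGAA, to CCAAT, and to the E2F forms TTTCCCGC, TTTCGCGC, TTTGCCGC and TTTGGCGC.

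Mcm5: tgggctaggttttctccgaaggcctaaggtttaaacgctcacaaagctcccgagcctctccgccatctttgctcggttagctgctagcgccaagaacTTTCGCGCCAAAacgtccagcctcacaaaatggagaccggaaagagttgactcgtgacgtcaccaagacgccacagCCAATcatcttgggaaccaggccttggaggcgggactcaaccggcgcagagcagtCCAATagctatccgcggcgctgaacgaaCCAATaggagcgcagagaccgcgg
Cdc6: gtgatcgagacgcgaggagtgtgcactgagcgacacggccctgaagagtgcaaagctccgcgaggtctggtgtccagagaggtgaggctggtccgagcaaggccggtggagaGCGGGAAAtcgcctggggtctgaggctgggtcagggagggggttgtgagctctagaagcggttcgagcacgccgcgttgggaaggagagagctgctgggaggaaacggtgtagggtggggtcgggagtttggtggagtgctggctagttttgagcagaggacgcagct
Ube2c: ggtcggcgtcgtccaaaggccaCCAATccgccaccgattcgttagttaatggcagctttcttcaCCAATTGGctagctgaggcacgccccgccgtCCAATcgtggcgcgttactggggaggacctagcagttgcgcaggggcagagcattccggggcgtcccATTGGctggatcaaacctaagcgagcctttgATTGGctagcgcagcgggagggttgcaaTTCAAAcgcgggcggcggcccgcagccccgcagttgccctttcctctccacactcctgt
Ccnb2: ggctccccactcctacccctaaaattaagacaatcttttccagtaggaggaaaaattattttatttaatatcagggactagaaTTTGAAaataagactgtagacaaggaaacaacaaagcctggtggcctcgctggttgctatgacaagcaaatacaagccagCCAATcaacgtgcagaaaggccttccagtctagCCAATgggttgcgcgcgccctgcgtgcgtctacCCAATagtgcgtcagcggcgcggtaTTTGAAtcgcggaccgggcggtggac
Cdk1: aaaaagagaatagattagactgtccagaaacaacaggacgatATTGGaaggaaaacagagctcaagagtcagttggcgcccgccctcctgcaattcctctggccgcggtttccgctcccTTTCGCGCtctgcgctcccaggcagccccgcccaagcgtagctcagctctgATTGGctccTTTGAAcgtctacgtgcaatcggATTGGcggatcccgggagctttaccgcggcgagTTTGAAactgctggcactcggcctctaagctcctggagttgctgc

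In Mcm5 a TTTCGCGC and a TTTGGCGC on the other strand share bases, and in Ube2c a CCAAT overlaps another on the other strand. The Cdc6 stretch lies downstream of the start that GENCODE M21 gives that gene (98907801). Its E2F match is thus upstream of the RefSeq start and inside the gene by GENCODE.

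RefSeq held windows of 300 bases (250 before the start, 50 after) for 34 of the 42 genes, with 15 windows for S phase genes and 21 for mitotic genes. Ccna2, Ccne2, Aurkb, Kif20a, Tpx2, Mcm4, Gins2 and Foxm1 had no entry. The CHR core was in 76.2% of mitotic windows (16 of 21), in 6.67% of S phase windows (1 of 15, in Mcm2), and in 17.9% of all 32851 promoter windows. CCAAT was in 90.5% of mitotic windows, 60% of S phase windows and 37.4% of all. An E2F form was in 40% of S phase windows (6 of 15) and in 4.76% of mitotic windows (1 of 21, in Cdk1), against 2.26% of all. These matches describe letters and not bound sites.

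**Figure D1:**
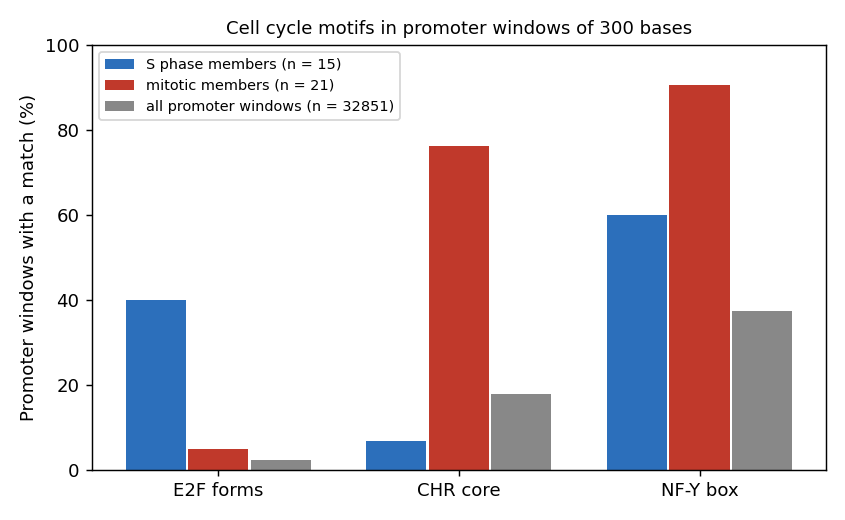
Share of promoter windows of 300 bases with at least 1 match on either strand, in percent, for E2F forms, the CHR core and the NF-Y box CCAAT. Bars stand for S phase genes (15 windows), mitotic genes (21 windows) and all 32851 windows: CHR matches stood in 76.2% of mitotic windows and E2F matches in 40% of S phase windows.

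Libraries held between 2641229 and 7541144 gene counts, and Ptprc, the gene of CD45, was detected in each, with group means of 623 to 1150 CPM (counts scaled to a common library size, with TMM factors set within a day). Macrophage markers had the highest summed level of the marker lists in every library (5060 to 23300 CPM over 8 genes), so macrophage RNA was present throughout, and T cell markers summed to between 200 and 1400 CPM over 10 genes. Markers of cells outside the sort were also present, with epithelial and tumour cell markers at 159 to 2310 CPM over 10 genes. Among B cell markers Pax5 was at 0 in 25 libraries, and among endothelial markers Tek and Cldn5 were at 0 in 27 each. Reads outside annotated genes took 24.1 ± 2.89% after 3x4Gy (SD, n = 6) against 16.1 ± 7.29% after 3x0Gy (n = 4). At day 5 they took 23.5 ± 4.51% after 1x20Gy (n = 6) against 16.9 ± 1.2% after 1x0Gy (n = 4), and at day 13 25.8 ± 3.66% (n = 7) against 20.4 ± 2.59% (n = 4). One mock library stands apart, 3x0Gy replicate 2, with 5.65% of reads outside genes and 23300 CPM of macrophage markers.

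The mean level over the genes of a class, on a log2 CPM scale, gives an overview and carries no test. For the 25 mitotic genes it was 5.40 ± 0.09 after 3x4Gy (SD, n = 6) against 5.04 ± 0.13 after 3x0Gy (n = 4), and 5.60 ± 0.17 after 1x20Gy (n = 6) against 5.01 ± 0.12 after 1x0Gy (n = 4) at day 5. In both pairs every irradiated library lay above every mock library. For the 17 S phase genes the day 5 means were 5.50 ± 0.16 after 3x4Gy against 5.32 ± 0.14 after 3x0Gy, where the groups overlap, and 5.60 ± 0.32 after 1x20Gy against 5.17 ± 0.14 after 1x0Gy, where they overlap too. At day 13 the mitotic mean was 4.64 ± 0.26 after 1x20Gy (n = 7) against 4.92 ± 0.14 after 1x0Gy (n = 4), and the S phase mean was 4.90 ± 0.11 against 4.99 ± 0.07. Both day 13 pairs overlap.

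**Figure D2:**
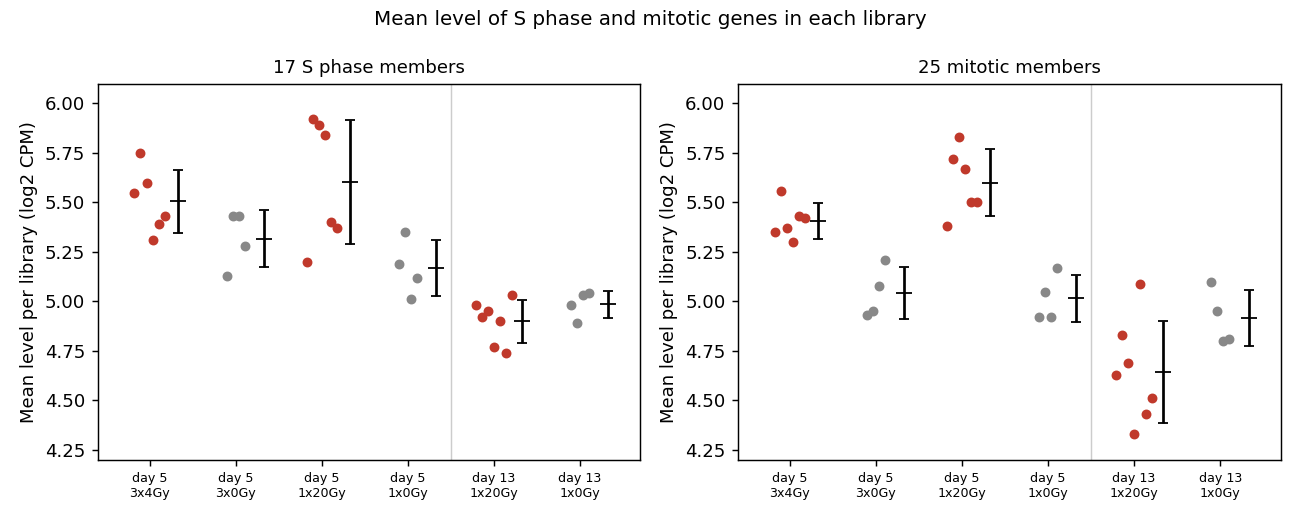
Mean log2 CPM over the 17 S phase genes (left) and the 25 mitotic genes (right), with 1 point per library and a bar for the group mean ± SD. Mitotic means of irradiated libraries at day 5 lie between 5.3 and 5.83, above all mock libraries of their own schedule, and at day 13 the 2 groups overlap.

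At day 5 after 1x20Gy, several genes that drive and end mitosis stood higher than in 1x0Gy mocks, and a few replication genes did too. Of the 25 mitotic genes, 7 rose and 0 fell: Ube2c, Plk1, Birc5, Nusap1, Tpx2, Ccnb2 and Ccnb1. Of the 17 S phase genes, 3 rose and 0 fell: Cdc6, Tyms and Mcm5. Of all 12021 genes tested in this fit, 3.67% were called higher and 4.88% lower (8.55% in either direction). With only these 10 libraries in the fit 17 mitotic and 4 S phase genes were called, all higher, beside 1426 of all 11403 genes. With the share of reads outside genes as a covariate 10 and 6 were called, all higher, beside 737 of all 12021 genes. At an adjusted p below 0.01 the counts were 6 and 2, beside 425 genes. With scaling by library size only they were also 6 and 2, beside 1157 genes. In the main fit the median log2 fold change was 0.57 over the mitotic genes, 0.42 over the S phase genes and 0.02 over all genes tested. It was above 0 for 25 of 25 mitotic and 16 of 17 S phase genes, against 53% of all genes. In 13 of 25 mitotic and 2 of 17 S phase genes every irradiated library lay above every mock library, against 5.44% of all genes tested. Calls come from the two-sided quasi-likelihood test of edgeR, with an adjusted p (Benjamini-Hochberg, all genes tested) below 0.05.

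Among the genes that end mitosis, Ube2c encodes the ubiquitin-conjugating enzyme of the anaphase-promoting complex (chromosome 2, 164769898 to 164778822, plus strand, GRCm38, as for all positions here). It ranged from 53.7 to 102 CPM after 1x20Gy (median 75.9, n = 6), against 35.1, 32.8, 26.5 and 39.4 CPM after 1x0Gy. The groups do not overlap, and the log2 fold change was 1.13 (SE 0.19, edgeR adjusted p = 0.0008). Tnnc2 on the opposite strand shares 22.8% of Ube2c's exon bases, and without a known strand setting reads there cannot be assigned to either gene. Birc5, survivin, is a subunit of the chromosomal passenger complex that corrects spindle attachments (chromosome 11, 117849251 to 117855743, plus strand). It had 188 to 355 CPM after 1x20Gy (median 222), against 115, 145, 116 and 141 CPM after 1x0Gy, again without overlap. Its log2 fold change was 0.88 (SE 0.17, edgeR adjusted p = 0.0026).

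Among the kinases and cyclins of mitotic entry, Plk1 is the polo-like kinase that activates cyclin B with Cdk1 and matures the centrosomes (chromosome 7, 122159439 to 122169873, plus strand). It had 59.8 to 89.0 CPM after 1x20Gy (median 71.8), against 24.4, 33.1, 44.0 and 38.9 CPM after 1x0Gy. All irradiated libraries lay above all mocks, with a log2 fold change of 1.04 (SE 0.19, edgeR adjusted p = 0.0016). Ccnb2, a B-type cyclin (chromosome 9, 70407692 to 70421547, minus strand), had 28.2 to 40.7 CPM after 1x20Gy (median 30.8), against 16.6, 21.1, 18.7 and 24.3 CPM after 1x0Gy. The groups do not overlap, and the log2 fold change was 0.74 (SE 0.17, edgeR adjusted p = 0.0086). Ccnb1, the main mitotic cyclin, rose by 0.61 (SE 0.15, edgeR adjusted p = 0.012), with 35.1 ± 6.12 CPM after 1x20Gy (SD, n = 6) against 23.1 ± 4.25 CPM after 1x0Gy (n = 4). That call was lost without 1x0Gy replicate 1. Cdk1, the kinase both cyclins activate (chromosome 10, 69335146 to 69352938, minus strand), had 103 to 159 CPM after 1x20Gy (median 123), against 55.8, 94.4, 90.2 and 94.0 CPM after 1x0Gy. These do not overlap either, yet the log2 fold change of 0.59 (SE 0.32, edgeR adjusted p = 0.29) did not pass the test.

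Of the spindle genes, Nusap1 and Tpx2 rose. Nusap1, which bundles spindle microtubules (chromosome 2, 119618298 to 119651244, plus strand), had 46.2 to 61.2 CPM after 1x20Gy (median 53.6), against 31.5, 31.8, 21.6 and 38.1 CPM after 1x0Gy. Its log2 fold change was 0.82 (SE 0.17, edgeR adjusted p = 0.0043). Tpx2, the spindle factor that activates Aurora A (chromosome 2, 152847964 to 152895321, plus strand), had 39.5 to 51.1 CPM after 1x20Gy (median 45.2), against 31.9, 30.8, 28.3 and 30.6 CPM after 1x0Gy. Its log2 fold change was 0.56 (SE 0.12, edgeR adjusted p = 0.005). Neither gene's groups overlap. The kinetochore motor Cenpe (chromosome 3, 135212537 to 135273611, plus strand) had 58.1 to 75.5 CPM after 1x20Gy (median 70.5), against 53.5, 47.3, 47.8 and 44.0 CPM after 1x0Gy. The groups do not overlap, but the log2 fold change of 0.53 (SE 0.19) had an edgeR adjusted p of 0.087. Ttk, the checkpoint kinase Mps1 (chromosome 9, 83834689 to 83872389, plus strand), had 11.2 to 23.4 CPM (median 15.6), against 10.7, 9.59, 6.22 and 12.7 CPM, with overlap.

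The 2 most used proliferation markers did not pass the test here. Mki67, which encodes the Ki-67 protein coating mitotic chromosomes (chromosome 7, 135689784 to 135716361, minus strand), had 146 to 238 CPM after 1x20Gy (median 180), against 154, 130, 109 and 113 CPM after 1x0Gy. One mock library lies within the irradiated range, and the log2 fold change was 0.59 (SE 0.22, edgeR adjusted p = 0.11). Top2a, the topoisomerase that untangles chromosomes (chromosome 11, 98992943 to 99024189, minus strand), had 365 to 536 CPM (median 437), against 362, 344, 250 and 332 CPM. Those groups do not overlap, with a log2 fold change of 0.47 (SE 0.19, edgeR adjusted p = 0.14). The remaining mitotic genes (Ccna2, Aurka, Aurkb, Bub1, Bub1b, Cdc20, Cenpa, Cenpf, Kif11, Kif20a, Kif23, Prc1 and Foxm1) had log2 fold changes between 0.2 (Bub1) and 0.62 (Cenpf) and none passed. Cenpf, Kif20a and Kif23 came nearest, with edgeR adjusted p of 0.071, 0.062 and 0.063. Cdc23 on the opposite strand shares 29.3% of Kif20a's exon bases, so the limit given for Ube2c holds there too.

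In S phase, the licensing factor Cdc6 showed the largest rise of the 42 genes (chromosome 11, 98907801 to 98923940, plus strand). It had 18.8 to 47.3 CPM after 1x20Gy (median 30.8), against 13.5, 19.7, 11 and 12.9 CPM after 1x0Gy. The lowest irradiated library lies below the highest mock, and the log2 fold change was 1.15 (SE 0.25, edgeR adjusted p = 0.0055). Tyms, thymidylate synthase (chromosome 5, 30058202 to 30073617, minus strand), had 21.1 to 40.4 CPM (median 29.5), against 17.9, 18.2, 18.0 and 13.8 CPM, without overlap. It rose by 0.83 on the log2 scale (SE 0.18, edgeR adjusted p = 0.0065). Mcm5, a helicase subunit, rose by 0.66 (SE 0.19, edgeR adjusted p = 0.035), with 82.4 ± 23.9 CPM after 1x20Gy (SD, n = 6) against 52.1 ± 6.65 CPM after 1x0Gy (n = 4). That call was lost when any of 1x20Gy replicates 2, 3, 4 and 5 or 1x0Gy replicates 1, 3 and 4 was left out.

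The clamp gene Pcna, another common proliferation marker, did not share this pattern (chromosome 2, 132249162 to 132253314, minus strand). It had 51.1 to 80.7 CPM after 1x20Gy (median 69.5), against 81.2, 71.4, 68.6 and 78.1 CPM after 1x0Gy, a log2 fold change of -0.15 (95% interval -0.48 to 0.19). It was the 1 S phase gene below 0. The annotation lists the processed pseudogenes Pcna-ps1 and Pcna-ps2, and Tyms, Ccnb1 and Ccnb2 have pseudogenes too, with which reads could be shared. Mcm2, another helicase subunit (chromosome 6, 88883474 to 88898780, minus strand), had 35.6 to 78.0 CPM (median 56.1), against 50.3, 47.0, 40.6 and 42.8 CPM. These groups overlap, with a log2 fold change of 0.29 (SE 0.19, edgeR adjusted p = 0.39). Gins2 had no overlap (29.7 to 43.7 CPM against 19.0 to 27.5 CPM) but an edgeR adjusted p of 0.11, and Gse1 on the other strand shares 67.3% of its exon bases. The other S phase genes (Ccne1, Ccne2, Mcm3, Mcm4, Mcm6, Mcm7, Rrm1, Rrm2, Tk1, Cdt1 and E2f1) lay between 0.15 and 0.7 and none passed.

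**Figure D3:**
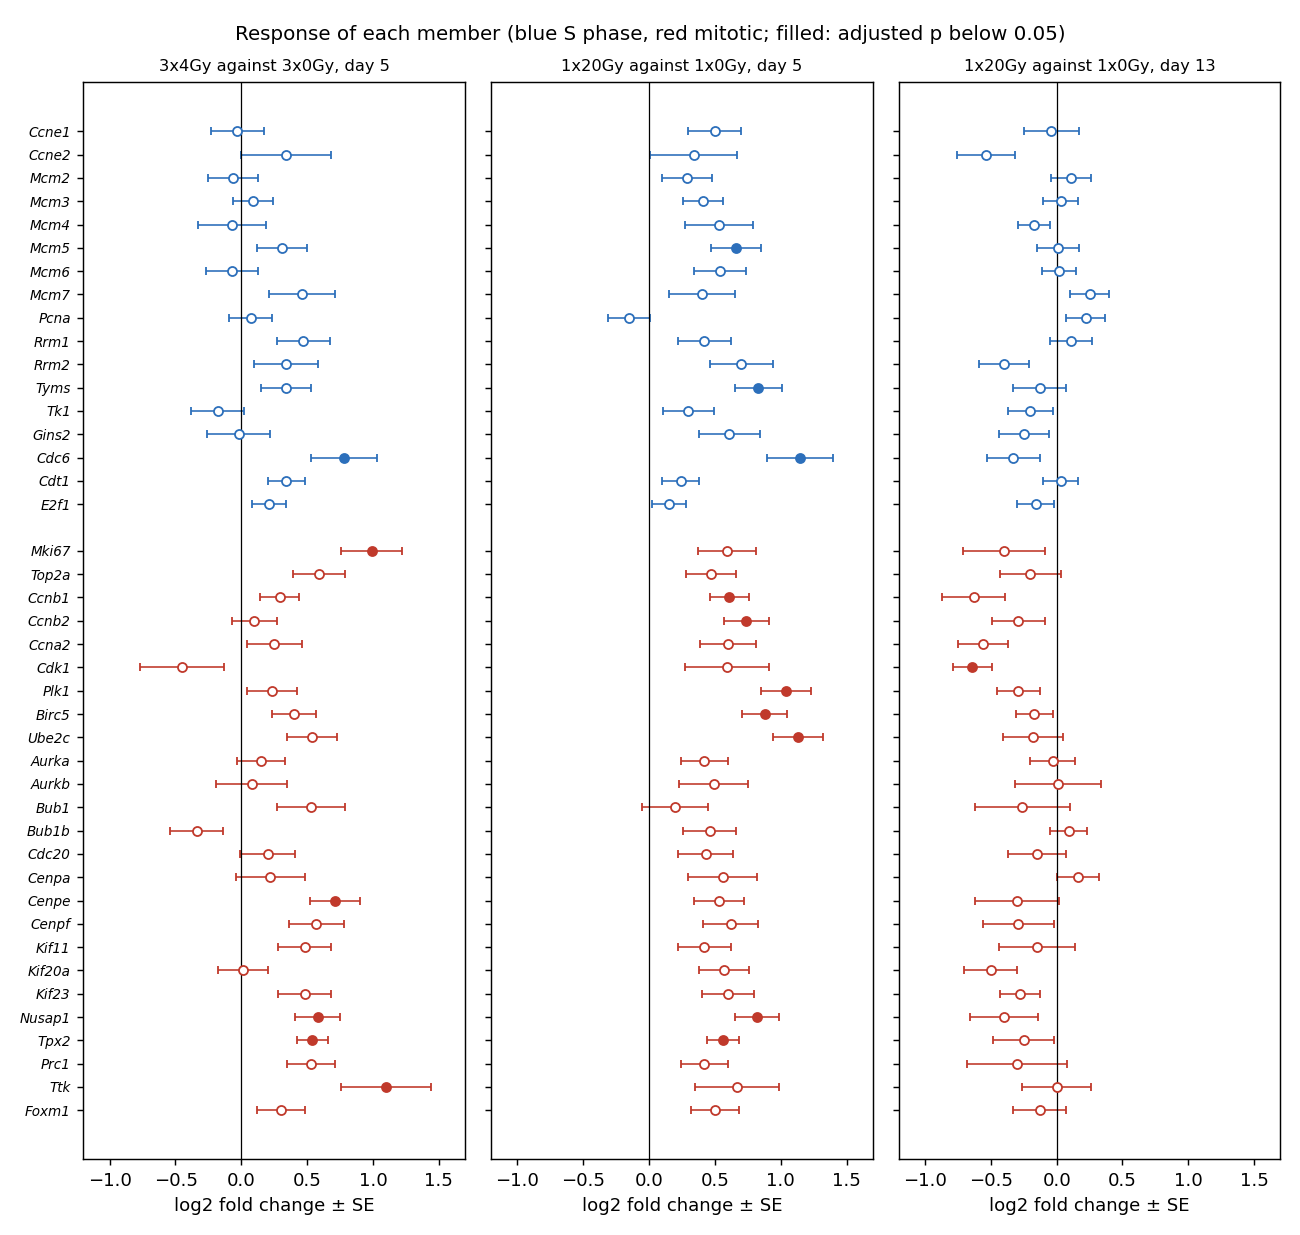
Log2 fold change ± SE of each gene (rows, S phase in blue above, mitotic in red below) for 3x4Gy against 3x0Gy at day 5, 1x20Gy against 1x0Gy at day 5 and 1x20Gy against 1x0Gy at day 13. Filled points have an adjusted p below 0.05: 6 in the first panel and 10 in the second are to the right of 0, and 1 in the third, Cdk1, is to the left.

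The 6 libraries after 1x20Gy at day 5 differed among themselves. In replicates 1 to 6 the S phase mean was 5.2, 5.92, 5.89, 5.84, 5.4 and 5.37 log2 CPM, and the mitotic mean was 5.38, 5.72, 5.83, 5.67, 5.5 and 5.5. Replicate 3 lay above its group's median for 40 of the 42 genes, and replicate 1 was the lowest of its group for 22. In the same order T cell markers summed to 385, 990, 856, 1050, 596 and 508 CPM, and macrophage markers to 13400, 5720, 8150, 5060, 11900 and 11800 CPM. Epithelial and tumour markers summed to 232, 159, 541, 308, 282 and 256 CPM, highest in replicate 3, which also had the highest mitotic mean. Replicate 1 thus had the lowest S phase and mitotic means, the lowest T cell sum and the highest macrophage sum. In bulk RNA, a change in the number of cells of a type and a change in RNA per cell cannot be told apart.

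Other cell type markers moved with the 1x20Gy group at day 5. T cell markers summed to 385 to 1050 CPM after 1x20Gy against 200 to 619 CPM after 1x0Gy, with 3 of 10 called higher. Regulatory T cell markers summed to 417 to 1110 CPM against 130 to 319 CPM, with 5 of 6 higher. Macrophage markers summed to 5060 to 13400 CPM against 9170 to 14900 CPM, with 0 of 8 called. Epithelial and tumour markers summed to 159 to 541 CPM against 435 to 638 CPM, with 4 of 10 lower and 0 higher. Neutrophil markers summed to 35.3 to 545 CPM against 23.5 to 84.5 CPM, with 2 of 6 higher, and monocyte markers to 549 to 1740 CPM against 412 to 918 CPM, with 1 of 5 higher. Of the mast cell markers 2 of 3 tested were higher, and of the erythroid markers 2 of 2 tested were lower. The part of these cells' RNA in the result was not tested.

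At day 5 after 3x4Gy, the proliferation marker Mki67, the spindle genes Tpx2 and Nusap1, the kinetochore motor Cenpe, the checkpoint kinase Ttk and the licensing factor Cdc6 stood higher than in 3x0Gy mocks. Of the 25 mitotic genes, 5 rose and 0 fell: Tpx2, Mki67, Cenpe, Nusap1 and Ttk. Of the 17 S phase genes, 1 rose, Cdc6, and 0 fell. Of all 12021 genes tested, 5.2% were called higher and 7.09% lower (12.3% in either direction), so the S phase count lies near the share of all genes. The median log2 fold change was 0.4 over the mitotic genes, 0.21 over the S phase genes and 0 over all genes. It was above 0 for 23 of 25 mitotic and 11 of 17 S phase genes, against 49.5% of all genes. In 4 mitotic genes and 1 S phase gene every irradiated library lay above every mock, against 3.91% of all genes tested. The main fit called 1477 of all genes. Leaving out 3x0Gy replicate 1 or replicate 2 left 2 of these 6 calls, those of Mki67 and Tpx2, beside 1132 and 1151 of all genes. With the share of reads outside genes as a covariate 1 call was left, that of Tpx2, beside 667 of all genes. The medians then were 0.47 over the mitotic and 0.34 over the S phase genes. With only these 10 libraries in the fit 1 call was left, that of Mki67, beside 702 of all 11418 genes.

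Mki67 had 144 to 360 CPM after 3x4Gy (median 165, n = 6), against 88.2, 80.4, 107 and 123 CPM after 3x0Gy. The groups do not overlap, replicate 1 at 360 CPM stands far above the rest, and the log2 fold change was 0.99 (SE 0.23, edgeR adjusted p = 0.0058). Without replicate 1 it was 0.73 and the call was kept. Tpx2 had 39.4 to 52.4 CPM after 3x4Gy (median 44.9), against 32.4, 25.2, 31 and 35.0 CPM after 3x0Gy, without overlap. Its log2 fold change of 0.54 (SE 0.12, edgeR adjusted p = 0.0052) was close to that after 1x20Gy. Nusap1 had 38.0 to 65.2 CPM after 3x4Gy (median 42.1), against 30.3, 23.2, 36.1 and 32.6 CPM after 3x0Gy, also without overlap. It rose by 0.58 on the log2 scale (SE 0.17, edgeR adjusted p = 0.033), a call kept under 7 of 20 alternatives.

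The kinetochore motor Cenpe had 52.8 to 100 CPM after 3x4Gy (median 66.3), against 35.2, 26.2, 47.6 and 58.1 CPM after 3x0Gy. One mock lies within the irradiated range, and the log2 fold change was 0.71 (SE 0.19, edgeR adjusted p = 0.017). Ttk had 9.63 to 27.8 CPM after 3x4Gy (median 15.2), against 8.02, 2.04, 9.25 and 10.2 CPM after 3x0Gy. Its log2 fold change of 1.1 (SE 0.34, edgeR adjusted p = 0.035) was the largest of the 42 genes here, and 3x0Gy replicate 2, at 2.04 CPM, stands below the other mocks. Cdc6 had 20.1 to 39.1 CPM (median 28.2), against 17.8, 12.3, 19.2 and 17.8 CPM, without overlap. It rose by 0.78 (SE 0.25, edgeR adjusted p = 0.046). That call was kept under 5 of 20 alternatives. It was lost when any 3x0Gy library or any of 3x4Gy replicates 1, 2, 3 and 5 was left out, and in limma voom.

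The 3 mitotic genes with the largest response to 1x20Gy, Ube2c, Plk1 and Birc5, did not pass the test after 3x4Gy. Ube2c had 35.1 to 61.1 CPM after 3x4Gy (median 46.9), against 32.8, 30.0, 30.1 and 38.3 CPM after 3x0Gy, a log2 fold change of 0.54 (SE 0.19, edgeR adjusted p = 0.067). Plk1 had 48.9 to 77.9 CPM (median 59.4), against 50.9, 73.2, 35.6 and 50.5 CPM, a log2 fold change of 0.23 (SE 0.19, edgeR adjusted p = 0.44). Birc5 had 141 to 228 CPM (median 187), against 155, 127, 127 and 144 CPM, a log2 fold change of 0.4 (SE 0.17, edgeR adjusted p = 0.13). All 3 overlap between groups.

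Ccnb2 had 21.5 to 34.7 CPM after 3x4Gy (median 25.5), against 23.4, 32.7, 21.6 and 23.9 CPM after 3x0Gy, and a log2 fold change of 0.1 (95% interval -0.26 to 0.45). Top2a had 336 to 761 CPM (median 399), against 266, 296, 340 and 342 CPM, a log2 fold change of 0.59 just short of the threshold (SE 0.2, edgeR adjusted p = 0.052). Tyms had 19.5 to 31.9 CPM (median 25.3), against 20.2, 20.8, 17.3 and 21.9 CPM, a log2 fold change of 0.34 (SE 0.19, edgeR adjusted p = 0.23). Pcna and Mcm2 had overlapping groups, while the other helicase subunits ranged from -0.07 (Mcm4 and Mcm6) to 0.46 (Mcm7) on the log2 scale and none passed. Pcna had 60.3 to 82.0 CPM after 3x4Gy (median 76.7), against 47.1, 86.9, 72.3 and 71.5 CPM (log2 fold change 0.07, 95% interval -0.27 to 0.41). Mcm2 had 38.7 to 65.7 CPM (median 54.1), against 48.8, 63.4, 64.7 and 48.4 CPM (log2 fold change -0.06, 95% interval -0.45 to 0.34).

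Cdk1 was one of 2 mitotic genes below 0 after 3x4Gy, with Bub1b. It had 22.6 to 129 CPM after 3x4Gy (median 106), against 100, 219, 87.3 and 106 CPM after 3x0Gy, a log2 fold change of -0.45 (95% interval -1.11 to 0.21). A single library sets each end: 3x4Gy replicate 1 has 22.6 CPM although it is the highest of its group for Mki67, Top2a, Cenpe, Nusap1 and Ttk, and 3x0Gy replicate 2 has 219 CPM. Without 3x0Gy replicate 2 the log2 fold change was -0.08. In 3x4Gy replicate 1 the 42 genes split, with 14 at the highest and 12 at the lowest level of the group.

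Cell type markers moved with the 3x4Gy group too. Regulatory T cell markers summed to 395 to 923 CPM after 3x4Gy against 204 to 359 CPM after 3x0Gy, with 5 of 6 higher, and T cell markers to 465 to 985 CPM against 312 to 800 CPM, with 1 of 10 higher. Fibroblast markers summed to 15.4 to 46.9 CPM against 69.5 to 179 CPM, with 5 of 5 tested lower. Epithelial and tumour markers summed to 177 to 803 CPM against 499 to 1130 CPM, with 2 of 10 lower and 0 higher. In replicates 1 to 6 after 3x4Gy these sums were 652, 803, 480, 212, 231 and 177 CPM, and the S phase means were 5.55, 5.75, 5.6, 5.31, 5.39 and 5.43 log2 CPM, so replicates 1 to 3 were the highest in both. In the same order T cell markers summed to 985, 967, 714, 465, 621 and 497 CPM, and macrophage markers to 5970, 6300, 7500, 11200, 12800 and 9610 CPM. Replicates 1 to 3 were thus also the highest for T cell markers and the lowest for macrophage markers. The mitotic means, 5.35, 5.56, 5.37, 5.3, 5.43 and 5.42, did not follow this order. Ptprc itself was called higher, with 750 to 1950 CPM against 378 to 811 CPM. Of the monocyte markers 1 of 5 was higher, of the dendritic cell markers 2 of 7, and of the erythroid markers 2 of 2 tested were lower. The part of these cells' RNA in the result was not tested.

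**Figure D4:**
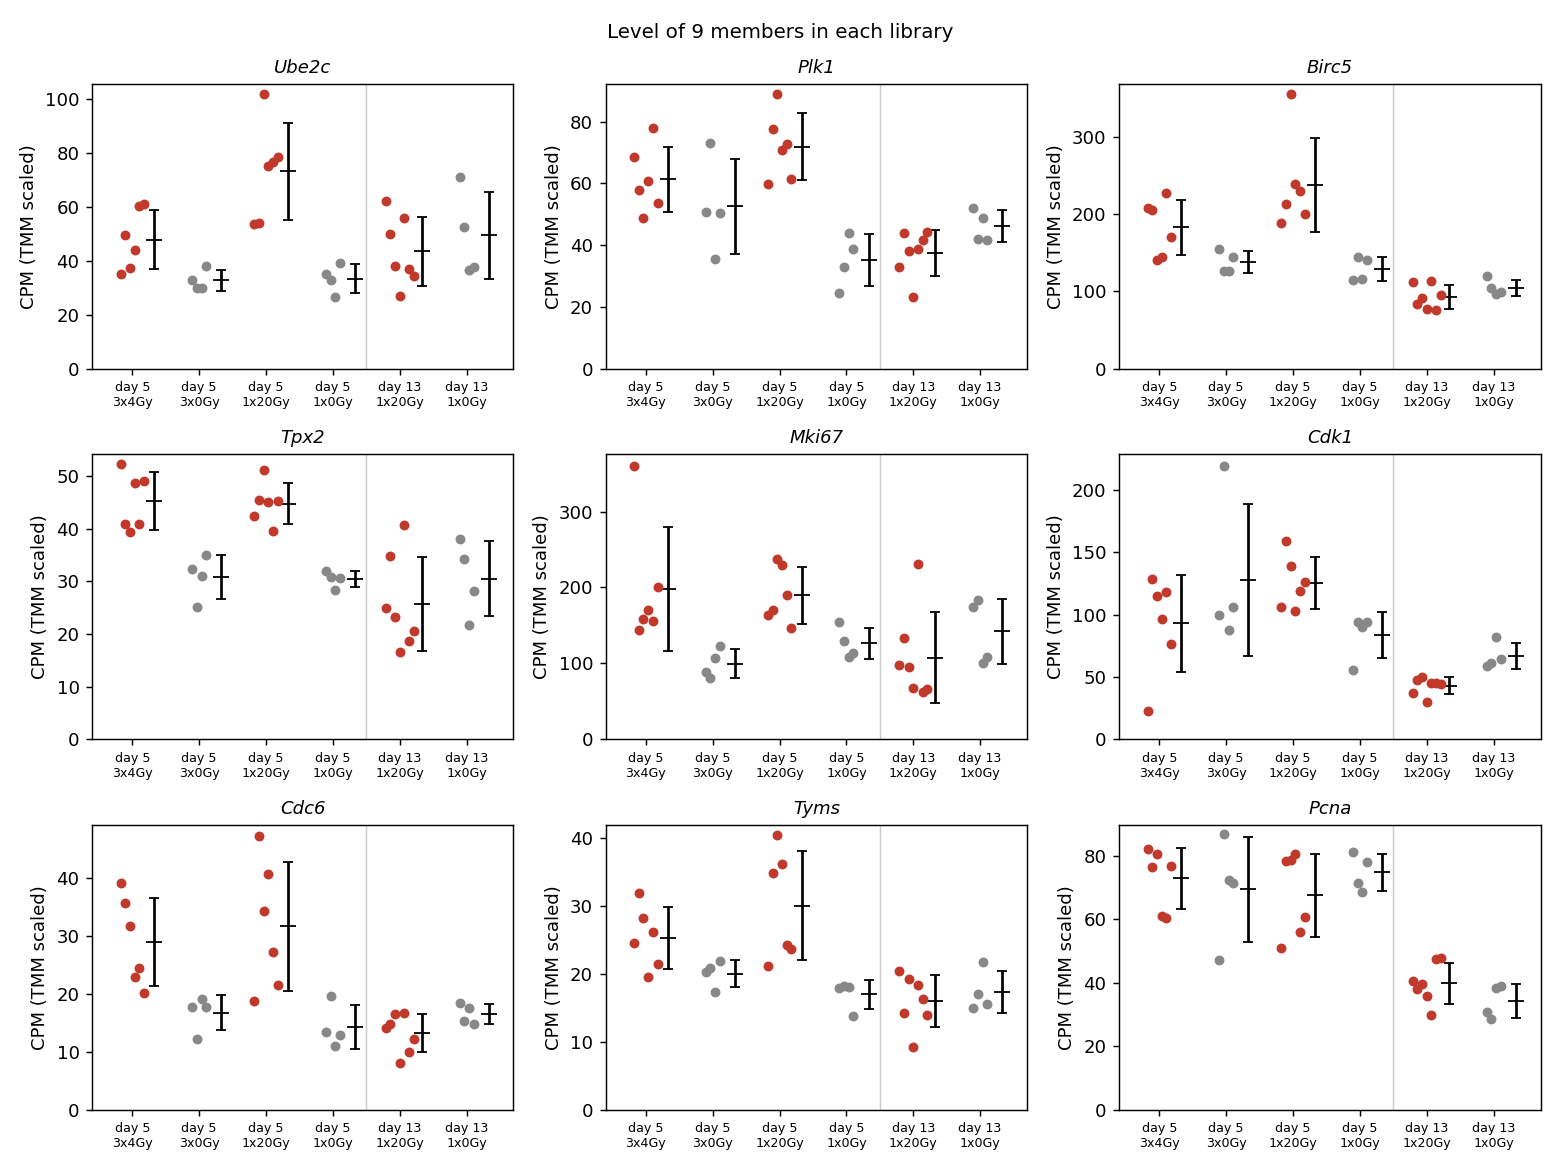
CPM of 9 genes in each library (points) with group mean ± SD, irradiated groups in red and mocks in grey. Ube2c, Plk1 and Birc5 are higher in all 1x20Gy libraries at day 5 than in their mocks, Mki67 is at 360 CPM in 1 of the 3x4Gy libraries, and Cdk1 is lower in all 7 irradiated libraries at day 13.

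Whether the regimens differed in their effect at day 5 was tested as the 3x4Gy response minus the 1x20Gy response. In edgeR 0 of 25 mitotic and 0 of 17 S phase genes were called, and 0% of all 12021 genes. DESeq2 and limma voom also called 0 of the 42 (1 and 0 of all genes), and 6 mitotic genes and 1 S phase gene were below an unadjusted p of 0.05, all with the smaller response after 3x4Gy, against 5.94% of all genes in either direction. The median difference was -0.24 over the mitotic genes, -0.36 over the S phase genes and -0.02 over all genes. Plk1 had a difference of -0.81 (95% interval -1.36 to -0.26), Cdk1 of -1.04 (-1.98 to -0.1) and Ube2c of -0.59 (-1.14 to -0.03), with edgeR adjusted p of 0.74, 0.8 and 0.8. For Tpx2 the difference was -0.02 (-0.37 to 0.33) and for Mki67 0.4 (-0.24 to 1.04), which leaves room for unequal responses in either direction. Tpx2, Nusap1 and Cdc6 were called after both regimens, which is 3 of the 6 genes called after 3x4Gy and 3 of the 10 called after 1x20Gy. After 3x4Gy, of 20 alternatives, 19 kept the Tpx2 call, 7 that of Nusap1 and 5 that of Cdc6.

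The mock schedules, 3x0Gy against 1x0Gy, give the spread without radiation. In edgeR 0 of 42 genes were called and 0% of all genes, and DESeq2 and limma voom called 0 of the 42 as well (2 and 0 of all genes). At an unadjusted p below 0.05 there were 2 mitotic genes, Plk1 (log2 fold change 0.58) and Bub1b (0.55), both higher after 3x0Gy, and 0 S phase genes, against 5.55% of all genes. The mean of Plk1 was 52.6 ± 15.5 CPM after 3x0Gy (SD, n = 4) and 35.1 ± 8.43 CPM after 1x0Gy (n = 4). The median log2 fold changes were 0.01 over the mitotic genes, 0.24 over the S phase genes and 0.03 over all genes. Above 0 were 13 of 25 mitotic and 13 of 17 S phase genes, against 53.8% of all genes. The S phase median of 3x4Gy against 3x0Gy, 0.21, was thus no larger than that between the mocks.

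At day 13 after 1x20Gy the rise of day 5 was not found, and 1 gene was lower than in 1x0Gy mocks. Of the 25 mitotic genes 1 fell, Cdk1, and 0 rose, and in edgeR 0 of 17 S phase genes were called in either direction. Of all 11071 genes tested 3.83% were called lower and 4.22% higher (8.05% in either direction), so the count of 1 is near the share of all genes. An unadjusted p below 0.05 was reached by 4 of 25 mitotic genes and 1 of 17 S phase genes, all lower. Of all genes tested 23.3% reached that level in either direction, so both shares lay below that of all genes. Of the mitotic and S phase genes, DESeq2 and limma voom called Cdk1 alone. The median log2 fold change was -0.26 over the mitotic genes, -0.04 over the S phase genes and 0.01 over all genes, with 3 of 25 and 8 of 17 above 0, against 50.7%.

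Cdk1 had 30.1 to 50.0 CPM after 1x20Gy (median 44.9, n = 7), against 58.5, 61.2, 81.7 and 64.4 CPM after 1x0Gy. Every irradiated library lay below every mock, as in 3.97% of all genes. The log2 fold change was -0.64 (SE 0.15, edgeR adjusted p = 0.014). The call was lost without 1x0Gy replicate 3, the highest mock, and with the share of reads outside genes as a covariate. Its partners Ccnb1 and Ccna2 had log2 fold changes of -0.63 and -0.56 with edgeR adjusted p of 0.12 and 0.082.

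The proliferation markers varied widely among irradiated libraries at day 13. Mki67 had 62.7 to 231 CPM after 1x20Gy (median 95.4), against 174, 184, 101 and 109 CPM after 1x0Gy (log2 fold change -0.4, SE 0.31, edgeR adjusted p = 0.48). Top2a had 171 to 407 CPM (median 191), against 344, 321, 177 and 232 CPM (log2 fold change -0.2, 95% interval -0.69 to 0.3). The top of both ranges is replicate 5, which was the highest of its group for 17 of the 42 genes. That library also had the fewest gene counts of all (2641229), the largest share of reads outside genes (32%) and the most Ptprc of its group (1320 CPM). Without it 3 mitotic or S phase genes were called lower in place of 1, beside 1264 of all genes in either direction in place of 891.

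The genes that rose at day 5 overlapped between groups at day 13. Ube2c had 26.9 to 62.3 CPM after 1x20Gy (median 38.2), against 71.1, 52.6, 36.6 and 37.6 CPM after 1x0Gy. Plk1 had 23.1 to 44.3 CPM (median 38.8), against 52.1, 42.1, 48.7 and 41.8 CPM. Birc5 had 76.2 to 114 CPM (median 91.1), against 120, 104, 96.2 and 99.1 CPM. These 3 had log2 fold changes of -0.18, -0.29 and -0.17, and none passed. Tpx2 had 16.5 to 40.8 CPM (median 23.3), against 38.0, 34.2, 21.7 and 28.2 CPM, and Nusap1 had 21.1 to 65.7 CPM (median 29.0), against 61.0, 52.9, 30.1 and 39.3 CPM.

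Cenpe, Ttk and Ccnb2 overlapped as well. Cenpe had 32.8 to 138 CPM after 1x20Gy (median 54.3), against 110, 99.5, 58.5 and 57.0 CPM after 1x0Gy. Ttk had 6.94 to 23.7 CPM (median 14.8), against 15.6, 16.2, 12.1 and 11.1 CPM. Ccnb2 had 7.83 to 13.1 CPM (median 10.2), against 15.6, 8.63, 11.7 and 15.2 CPM. In S phase 0 of 17 genes were called and 8 were above 0. The lowest were Ccne2 (log2 fold change -0.54, 95% interval -1.02 to -0.06) and Rrm2 (-0.4, -0.81 to 0).

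Pcna had 29.8 to 47.9 CPM after 1x20Gy (median 39.5), against 30.9, 28.6, 38.5 and 39.0 CPM after 1x0Gy (log2 fold change 0.22, 95% interval -0.1 to 0.54). Mcm2 had 25.3 to 38.0 CPM (median 27.8), against 25.1, 22.9, 28.0 and 33.7 CPM (log2 fold change 0.11, 95% interval -0.22 to 0.43). Cdc6 had 8.1 to 16.7 CPM (median 14.2), against 18.4, 15.4, 17.6 and 14.8 CPM, a log2 fold change of -0.33 (95% interval -0.74 to 0.09). Tyms, with 9.25 to 20.4 CPM (median 16.3) against 15, 17, 21.7 and 15.5 CPM, had one of -0.13 (95% interval -0.55 to 0.29). All 4 overlap between groups, and the other S phase genes ranged from -0.54 (Ccne2) to 0.25 (Mcm7).

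At day 13 the cell type markers moved in other ways. T cell markers summed to 721 to 1400 CPM after 1x20Gy against 460 to 759 CPM after 1x0Gy, with 5 of 10 higher. Macrophage markers summed to 6430 to 8930 CPM against 8940 to 11700 CPM, with 4 of 8 lower. Epithelial and tumour markers summed to 790 to 2310 CPM against 708 to 952 CPM, with 4 of 9 tested higher and 1 lower. Of the NK cell markers 3 of 4 were higher, of the neutrophil markers 3 of 5 tested were higher, and of the fibroblast markers 3 of 5 tested were lower. Their part in the Cdk1 result was not tested.

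The change between days was tested as the 1x20Gy response at day 13 minus that at day 5, over all 31 libraries. Of the 25 mitotic genes 4 had a lower response at day 13 (Plk1, Ccnb1, Birc5 and Ube2c), and of the 17 S phase genes 1 did (Cdc6), with 0 higher. Of all 12061 genes tested 0.216% were called lower and 0.207% higher (0.423% in either direction). The differences on the log2 scale were -1.31 for Plk1 (95% interval -1.83 to -0.8, edgeR adjusted p = 0.044), -1.22 for Ccnb1 (-1.76 to -0.69, 0.045) and -1.03 for Birc5 (-1.49 to -0.58, 0.045). They were -1.29 for Ube2c (-1.9 to -0.68, 0.045) and -1.46 for Cdc6 (-2.14 to -0.78, 0.045). The median difference was -0.81 over the mitotic genes and -0.5 over the S phase genes, against 0.01 over all genes. It was above 0 for 0 of 25 mitotic genes and for 1 of 17 S phase genes, Pcna (0.39). All 5 calls lie close to the threshold: limma voom left 1, and none was left without day 5 1x20Gy replicate 2, 4 or 5, day 5 1x0Gy replicate 1, 2 or 4, day 13 1x20Gy replicate 1 or 6, or day 13 1x0Gy replicate 1, 3 or 4. Day and experiment cannot be told apart in this difference.

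**Figure D5:**
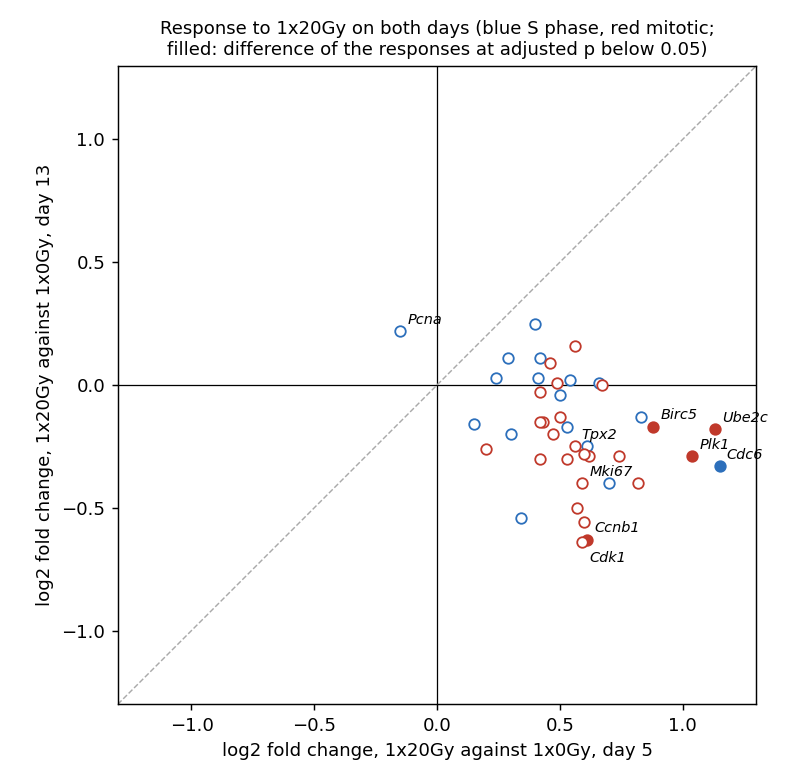
Log2 fold change of each gene for 1x20Gy against 1x0Gy at day 5 (x axis) and at day 13 (y axis), S phase in blue and mitotic in red, with the line of equal response dashed. The 5 filled points, Plk1, Ccnb1, Birc5, Ube2c and Cdc6, have a difference of responses at an adjusted p below 0.05, and Pcna is the 1 gene above the line.

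Other genes of the same processes, from lists that exclude the 42, were counted in the same fits. At day 5 after 1x20Gy, 5 of 28 other replication genes rose and 0 fell (median log2 fold change 0.42), against 3.67% of all genes called higher. Clspn, which stabilises replication forks, averaged 54.4 ± 15.8 CPM after 1x20Gy (SD, n = 6) against 27.7 ± 7.68 CPM after 1x0Gy (n = 4), a log2 fold change of 0.97 (SE 0.21, edgeR adjusted p = 0.0046). Lig1, the ligase that joins replication fragments (0.91), Cdc45 of the replicative helicase (0.88), the replication initiator Mcm10 (0.76) and Uhrf1, which copies DNA methylation (0.73), rose too. After 3x4Gy 0 of 28 were called in edgeR, with 8 below an unadjusted p of 0.05, all higher. Of all genes 28.3% were below that level in either direction, so the count is near the share of all genes. At day 13 0 of 27 were called, with 1 higher and 3 lower at that level, against 23.3% of all genes.

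Of 38 other mitotic genes tested, 10 rose and 0 fell at day 5 after 1x20Gy (median 0.46), and 4 rose and 0 fell after 3x4Gy (median 0.28), against 3.67% of all genes called higher after 1x20Gy and 5.2% after 3x4Gy. Cdc25b, the phosphatase that activates Cdk1, averaged 84.2 ± 28.1 CPM after 1x20Gy (SD, n = 6) against 30.5 ± 2.71 CPM after 1x0Gy (n = 4), a log2 fold change of 1.46 (SE 0.33, edgeR adjusted p = 0.0064). After 3x4Gy it averaged 65.8 ± 24.3 CPM (n = 6) against 27.4 ± 13.9 CPM after 3x0Gy (n = 4), a log2 fold change of 1.25 (SE 0.33, edgeR adjusted p = 0.015). The kinetochore gene Ndc80 rose after both regimens (0.76 after 1x20Gy, 0.86 after 3x4Gy). After 1x20Gy the kinetochore gene Spc24 (1.22), the passenger complex gene Cdca8 (0.85), the abscission gene Cep55 (0.85) and the cohesion gene Cdca5 (0.76) rose, and after 3x4Gy the chromokinesin Kif4 (0.91) and the condensin gene Ncapg (0.73). At day 13, 1 of 38 fell, the chromokinesin Kif22 (log2 fold change -0.47, edgeR adjusted p = 0.042), and 0 rose, against 3.83% of all genes called lower. Between days Spc24, Kif22 and Cdca8 had lower responses at day 13, with differences of -1.21, -0.94 and -0.93 on the log2 scale.

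Of 15 brakes of the cycle tested, 1 rose and 1 fell after each regimen at day 5, a share near that of all genes called (12.3% after 3x4Gy, 8.55% after 1x20Gy), with list medians of 0.05 after 3x4Gy and 0.09 after 1x20Gy. Cdkn1a, a p53 target that blocks cyclin-bound kinases, rose in the same libraries in which the mitotic genes rose, with log2 fold changes of 1.44 after 3x4Gy and 1.11 after 1x20Gy. At day 13 it averaged 214 ± 33.1 CPM after 1x20Gy (SD, n = 7) against 190 ± 58.5 CPM after 1x0Gy (n = 4) and was not called. Cdkn2a, the INK4A and ARF locus, fell to 3.24 ± 1.22 CPM after 3x4Gy (SD, n = 6) against 10.1 ± 4.77 CPM after 3x0Gy (n = 4), a log2 fold change of -1.58 (SE 0.35, edgeR adjusted p = 0.0043). After 1x20Gy it averaged 2.91 ± 1.63 CPM (n = 6) against 7.92 ± 1.3 CPM after 1x0Gy (n = 4), a log2 fold change of -1.43 (SE 0.35, edgeR adjusted p = 0.011). At day 13 edgeR called 0 of 15, with 3 higher and 1 lower at an unadjusted p below 0.05, against 23.3% of all genes.

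Of 15 G1 entry genes, edgeR called 0 after 3x4Gy at day 5. At an unadjusted p below 0.05 there were 2, both higher, against 28.3% of all genes in either direction. After 1x20Gy at day 5, 1 rose, the D-type cyclin Ccnd3, with 176 ± 31.9 CPM (SD, n = 6) against 96.3 ± 13.8 CPM after 1x0Gy (n = 4) and a log2 fold change of 0.87 (SE 0.24, edgeR adjusted p = 0.027). At day 13, 1 rose, the D-type cyclin Ccnd2, with 632 ± 95.3 CPM after 1x20Gy (n = 7) against 385 ± 74.3 CPM after 1x0Gy (n = 4) and a log2 fold change of 0.71 (SE 0.15, edgeR adjusted p = 0.0091). Counts of 1 of 15 are near the share of all genes called in either direction, 8.55% after 1x20Gy at day 5 and 8.05% at day 13.

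Levels can be ordered between genes only per length. The length used is that of all annotated exons of a gene merged, which can exceed that of any 1 transcript, so the order depends on the annotation. In CPM per kilobase of annotated exon in day 5 1x0Gy libraries, Birc5 (38.0 ± 4.69, SD, n = 4), Top2a (35.7 ± 5.5), Pcna (31.2 ± 2.43) and Mcm3 (28.0 ± 2.84) were highest, and the ranges of mean ± SD of neighbours in this order overlap. Ttk (1.99 ± 0.552), Bub1 (1.68 ± 0.201) and Ccne2 (1.51 ± 0.634) were lowest, with overlapping ranges too. The strongest risers after 1x20Gy lay in between, with Plk1 at 16.0 ± 3.82, Ube2c at 12.9 ± 2.07 and Cdc6 at 2.73 ± 0.721.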

How the data were processed

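Per the submitters' processing notes, reads were handled with bcl2fastq 2.20.0.422, cutadapt 1.5, HISAT2 2.0.4 and HTSeq 0.9.1 on GRCm38 (mm10); annotation, strand setting and filters are not given in the sources used here. The deposited values are counts per gene symbol, 1 table per library (38406 symbols and 5 summary lines, which stayed out of library sizes). Low genes were removed by filterByExpr (min.count 10, min.total.count 15) and libraries scaled by TMM before edgeR's quasi-likelihood test (version 4.0.16, R 4.3.3). A call is an adjusted p below 0.05, by Benjamini-Hochberg across the genes tested in that fit. The 20 day 5 libraries shared 1 fit, the 11 day 13 libraries had their own, and the day difference used all 31. An SE is the absolute log2 fold change over the square root of the F statistic, and 95% intervals use edgeR's degrees of freedom. CPM was scaled by TMM within a day, and log2 CPM used a prior count of 2. Totals of 2641229 to 7541144 counts limit precision, and no replicate libraries agreed within counting error (chi-square per degree of freedom 3.67 to 69.3). Alternatives were DESeq2 1.42.0, limma voom (limma 3.58.1), other scalings, filters, covariates and left-out libraries. Positions and exon lengths came from GENCODE M21.

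The 42 genes and the other lists were chosen with earlier results of these data known. Values in every library are given for Mki67, Top2a, Pcna, Mcm2 and, per comparison with a mock, for called genes, at most the 8 with the smallest adjusted p. From the other lists, called genes are named, at most the 6 with the largest change. Of the marker and process genes, 5 were matched by an older symbol.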

Additional observations from a re-analysis of the deposited data

Results flagged for a closer look

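In 7 of 114 tests of a gene or a class mean in a group of 4 to 7 libraries, a single library lay far from the others, and chance gives about 1 in 20 such groups. On the log2 CPM scale, Mki67 was at 8.5 in day 5 3x4Gy replicate 1, with the next library at 7.65, and Cdk1 was at 4.52 in that same library, with the next at 6.26. In 3x0Gy replicate 2, the library with few reads outside genes, Ttk was at 1.29 with the next at 3.07, and Cdc6 was at 3.66 with the next at 4.18. In day 5 1x0Gy libraries, Tyms was at 3.83 in replicate 4 with the next at 4.19, and Cdk1 was at 5.81 in replicate 1 with the next at 6.5. Ccnb1 was at 5.57 in day 5 1x20Gy replicate 3, with the next at 5.14.

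The 1x20Gy response was called different between days for 5 genes by a test of the difference itself (edgeR, all 31 libraries). Over all 12061 genes 51 were called. The day 13 response minus the day 5 response was -1.31 for Plk1, -1.46 for Cdc6, -1.22 for Ccnb1, -1.03 for Birc5 and -1.29 for Ube2c on the log2 scale. The edgeR adjusted p were 0.044 to 0.045, close to the threshold. At an adjusted p below 0.01 the count was 0, with limma voom 1, and with 1 library left out 0 to 9. Day and experiment cannot be told apart in this difference.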

How the results depend on the processing

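The alternatives covered all 42 genes, called or not, in the 3 comparisons with a mock, and the 5 genes called between days. Of these values, 0 of 2670 turned a call round. After 1x20Gy at day 5, Ube2c, Plk1, Birc5, Nusap1, Tpx2, Cdc6, Tyms and Ccnb2 kept their calls under all 20 alternatives. The number of genes called of the 42 was 10 in that comparison, and 8 to 12 with 1 library left out. It was 16 with the share of reads outside genes as a covariate, 21 with only the groups compared in the fit, 13 with DESeq2 and 12 with limma voom. It was 8 at an adjusted p below 0.01 or by library size only. With upper quartile scaling, no filter or the epithelial and fibroblast marker mean as a covariate it was 9. For 3x4Gy it was 6, 2 at an adjusted p below 0.01, 2 with scaling by library size only, 1 with the outside share as a covariate, 2 with the epithelial and fibroblast marker mean as a covariate, 1 with only the groups compared, and 2 to 8 with 1 library left out (2 without 3x0Gy replicate 1 or 2). At day 13 it was 1, 0 at an adjusted p below 0.01, 6 by library size only, 6 with the outside share, 2 with the marker mean, and 0 to 3 with 1 library left out (0 without 1x0Gy replicate 3, 3 without 1x20Gy replicate 5). For the difference between days it was 5, 0 at an adjusted p below 0.01, 9 with DESeq2, 1 with limma voom, 1 with upper quartile scaling, 3 with the marker mean, and 0 to 9 with 1 library left out (9 without day 13 1x20Gy replicate 5). For the difference of the regimens and for the mocks it was 0 under every alternative. With the replicate number of the titles as a block it was 6 for 3x4Gy, 15 for 1x20Gy at day 5, 3 at day 13, 1 for the difference between days, and 0 for the other comparisons. Same-numbered libraries correlated between -0.43 and 0.4 over 16 pairs, not all above 0.1 in any comparison. In 9 pairs the libraries correlated best with their own number, a hint from the data and not from the design, and the labels tie no numbers together, so they were not treated as pairs. Scaling by library size only moved the median of all genes to -0.1 (3x4Gy), -0.11 (1x20Gy, day 5) and -0.23 (day 13), and the medians over the mitotic genes then were 0.3, 0.45 and -0.47. Genes called over the whole table were 1477 after 3x4Gy, 702 with only the groups compared and 665 at an adjusted p below 0.01. They were 667 with the outside share, 332 with the marker mean, 1409 by library size only and 1223 with the block. With 1 library left out they were 1132 to 1815. They were 1028 after 1x20Gy at day 5, 1426 with only the groups compared and 425 at an adjusted p below 0.01. They were 737 with the outside share, 229 with the marker mean, 1377 with DESeq2 and 1093 with limma voom. By library size only they were 1157, with upper quartile scaling 1062, with no filter 1057 and with the block 876. With 1 library left out they were 556 to 1024. At day 13 they were 891, 290 at an adjusted p below 0.01, 1533 by library size only and 1178 with the outside share. They were 769 with the marker mean, 1064 with the block and 306 to 1264 with 1 library left out. For the difference between days they were 51, 1 at an adjusted p below 0.01, 228 with DESeq2 and 3 with limma voom. They were 5 with upper quartile scaling, 16 with the block, 13 with the marker mean and 85 with no filter. With 1 library left out they were 1 to 110. The cause of these shifts was not tested.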

Other observations

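The balance of the classes, the S phase mean minus the mitotic mean in log2 CPM per library, is a description with no test. At day 5 it was 0.1 ± 0.12 after 3x4Gy (SD, n = 6) against 0.28 ± 0.18 after 3x0Gy (n = 4), and 0.01 ± 0.17 after 1x20Gy (n = 6) against 0.15 ± 0.17 after 1x0Gy (n = 4). At day 13 it was 0.25 ± 0.24 after 1x20Gy (n = 7) against 0.07 ± 0.19 after 1x0Gy (n = 4). The groups overlap in all 3 pairs.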
